A study of Mus musculus with 21 samples.

Results

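The earliest response of mouse skin to repeated ultraviolet (UV) light was read from 6 arrays, the 3 of UV week 1 and the 3 of control week 1, out of 21 arrays in 7 groups. The samples were chosen by their titles alone, and all 45037 probe sets other than the 64 controls of the array were compared. A probe set is a group of short probes on the array that reads 1 transcript. The mice were female Hos:HR-1, an albino hairless strain in which the dorsal skin can be irradiated without shaving, 6 weeks old on arrival and kept for 1 week before the study. Mice of UV week 1 were irradiated 3 times a week at 1 MED, the minimal erythema dose, here 100 mJ per square cm, with a lamp that emits between 275 and 380 nm and peaks at 310 to 315 nm. Mice of control week 1 were of the same strain and tissue and were not irradiated. The mice carried no transgene. They were anesthetized with isoflurane before each irradiation, and whether the controls were is not given in the sources used here. The other groups used below are non-irradiated skin of week 8 and irradiated skin of weeks 2, 4, 6 and 8, under a dose that went up by 1 MED a week to at most 4 MED. The design gives 3 animals a group, and the labels do not say which mouse each array came from, so the p-values measure the spread between these arrays. How long after the last session the skin was taken is not given in the sources used here.

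UVB light is absorbed by DNA and leaves pyrimidine dimers, which the cell removes by nucleotide excision repair while p53 holds the cycle or starts cell death. In keratinocytes it also activates the EGF receptor and AP-1 factors, and in skin as a whole it is known to drive inflammation, to thin out Langerhans cells and, with repetition, to degrade dermal collagen. The arrays read RNA of whole skin, so fewer cells of a type and less RNA per cell cannot be told apart. The keratinocyte markers Krt5, Krt14, Krt1, Krt10, Lor and Flg and the fibroblast markers Col1a1, Col1a2, Col3a1, Dcn, Lum and Pdgfra all lay at or above the 98.1 percentile of the probe sets in control week 1. The skeletal muscle genes Acta1, Ckm and Mylpf lay as high, so the pieces of skin held muscle.

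The quality of the RNA differed within both groups. The log2 ratio of the 3′ to the 5′ beta-actin control probe set, which is higher where RNA is broken or its copy is short, was 4.74, 2.55 and 2.37 on control arrays 12, 13 and 16, and 4.88, 4.39 and 2.71 on UV arrays 112, 114 and 116. Thus 1 control array and 2 UV arrays lay above 4 on this scale, and the others lay below 3. UV array 116 correlated with control arrays 13 and 16 at 0.991 to 0.994 across probe sets, whereas UV arrays 112 and 114 correlated with these at 0.967 to 0.979. For the called genes and several others and for most gene lists, values are therefore also given within each class of this ratio, that is UV arrays 112 and 114 against control array 12, and UV array 116 against control arrays 13 and 16.

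After the first week 5 probe sets had fallen and none had risen by at least 2-fold at an adjusted p of at most 0.05 (limma, Benjamini-Hochberg), which is 0.0111% and 0% of those tested. The genes are Vma21, an assembly factor of the vacuolar proton pump, Klf9, a transcription factor induced by glucocorticoids, Ppp1r3c, which targets a phosphatase to glycogen, Tspan2, a tetraspanin of the cell membrane, and Tppp, which promotes the polymerization of tubulin. No further probe set passed the adjusted p at a smaller fold. At an unadjusted p of at most 0.05, 3861 probe sets (8.57%) were lower and 4402 (9.77%) were higher. The 3 UV arrays lay below the 3 control arrays in 3236 probe sets (7.19%) and above them in 5237 (11.6%). By size alone the balance was the other way, since 658 probe sets were at least 2-fold lower and 27 at least 2-fold higher. The median difference went from 0.11 on the log2 scale among the 11260 dimmest probe sets to -0.12 among the 11259 brightest, where 2204 were lower and 953 higher at the unadjusted p.

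**Figure D1:**
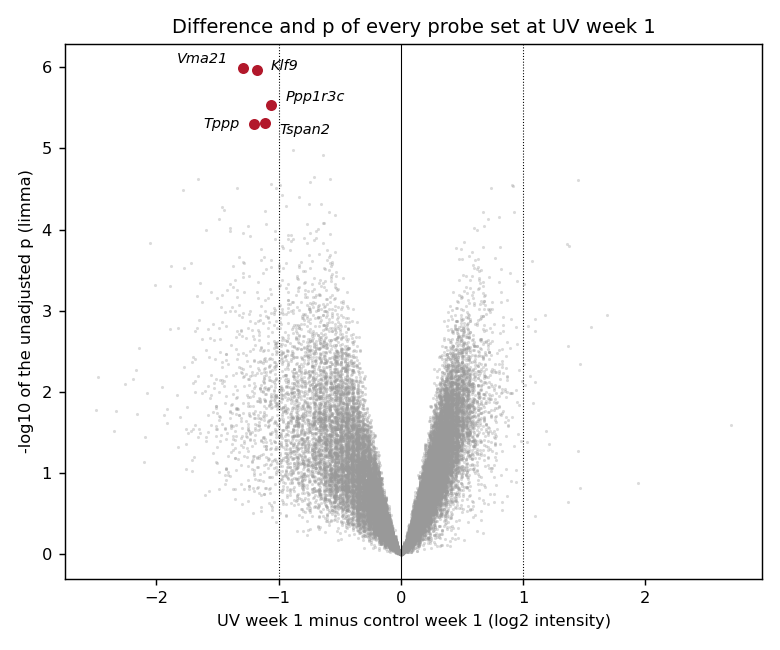
Each point is 1 of 45037 probe sets, with the difference of the UV week 1 and control week 1 means in log2 intensity on the x axis and -log10 of the unadjusted limma p on the y axis. The dotted lines mark a 2-fold difference, the 5 called probe sets (red) lie to the left, and the 658 probe sets past the left line outnumber the 27 past the right one.

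The count of calls rested on single arrays. With control array 13, UV array 112 or UV array 114 left out no probe set was called, and without control array 16 there were 12 lower and 1 higher. Leaving out either of 2 arrays gave more calls: 255 lower and 22 higher without control array 12, and 270 lower and 35 higher without UV array 116. A fit to the 6 arrays alone called none, as against the fit to all 21 arrays, which takes the spread from all 7 groups. With the beta-actin ratio as a covariate 37 probe sets were lower and 1 higher, and all 5 called probe sets were among them.

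Vma21 was read at 7.45, 7.61 and 7.40 on the control arrays and at 6.23, 6.02 and 6.35 on the UV arrays, in log2 intensity. The groups did not overlap, and the mean fell by 1.29 ± 0.18 (limma adjusted p = 0.0243). Here and below, ± after a difference is the limma SE for n = 3 a group. Its spread comes from the fit to all 21 arrays, not from these 6 alone. Vma21 has 3 further probe sets, and they did not move alike, with differences of -1.43, 0.55 and -0.04, none of which passed the adjusted test.

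Klf9 was read at 6.35, 6.94 and 6.34 in the controls and at 5.19, 5.48 and 5.42 after UV. All UV arrays were below all controls, and the mean fell by 1.18 ± 0.17 (limma adjusted p = 0.0243). A second probe set of Klf9 of similar brightness differed by -0.90 (limma adjusted p = 0.1), while the brightest probe set of the gene, with a control mean of 12.00, differed by -0.33 (limma adjusted p = 0.358). The other 4 probe sets of Klf9 gave -0.32, 0.30, 0.27 and 0.17.

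Ppp1r3c was the brightest of the 5, with 11.60, 11.68 and 11.46 in the controls and 10.35, 10.37 and 10.84 in the UV arrays. Its mean fell by 1.06 ± 0.16 (limma adjusted p = 0.0433), and array 116, the UV array with the lower beta-actin ratio, was the highest of the UV arrays. Its other probe set, a dim one, differed by -0.62 (limma adjusted p = 0.164).

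Tspan2 was read at 5.96, 5.84 and 5.74 in the controls and at 4.50, 4.98 and 4.72 after UV, a fall of 1.11 ± 0.17 (limma adjusted p = 0.0453). Tppp was read at 5.90, 5.80 and 6.41 and then at 4.95, 4.91 and 4.64, a fall of 1.20 ± 0.19 (limma adjusted p = 0.0453). Both separate the groups in every array. Tppp has 1 probe set on the array, and the 2 other probe sets of Tspan2 differed by 0.23 and -0.17.

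All 5 differences were below 0 within both classes of the beta-actin ratio. This had to be so, because in each the UV arrays all lay below the controls, and only the sizes add to it. In the class above 4 they were -1.33 for Vma21, -1.02 for Klf9, -1.24 for Ppp1r3c, -1.22 for Tspan2 and -0.97 for Tppp. In the class below 4 they were -1.15, -1.22, -0.73, -1.07 and -1.47 in the same order. Against control week 8 in place of control week 1 the differences were -0.96 for Vma21, -0.77 for Klf9, -1.50 for Ppp1r3c, -0.97 for Tspan2 and -0.78 for Tppp, and the limma adjusted p passed 0.05 for each but Tppp (0.068).

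In the later UV groups Klf9, Ppp1r3c and Tppp stayed low. All 15 UV arrays of weeks 1 to 8 lay below all 6 control arrays for Klf9 (5.11 to 5.75 against 6.03 to 6.94), for Ppp1r3c (10.11 to 10.92 against 11.46 to 12.09) and for Tppp (3.67 to 4.96 against 5.47 to 6.41). The arrays of week 1, on which the genes were called, are among these, so only the later arrays are new here. The lowest mean of Vma21 was that of UV week 1, at 6.20 ± 0.17 (SD, n = 3), and UV week 2 was at 6.99 ± 0.11. For Tspan2 the means of these weeks were 4.73 ± 0.24 and 5.34 ± 0.27. The steps from UV week 1 to UV week 2 of both genes, 0.79 and 0.61, did not pass the adjusted test.

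**Figure D2:**
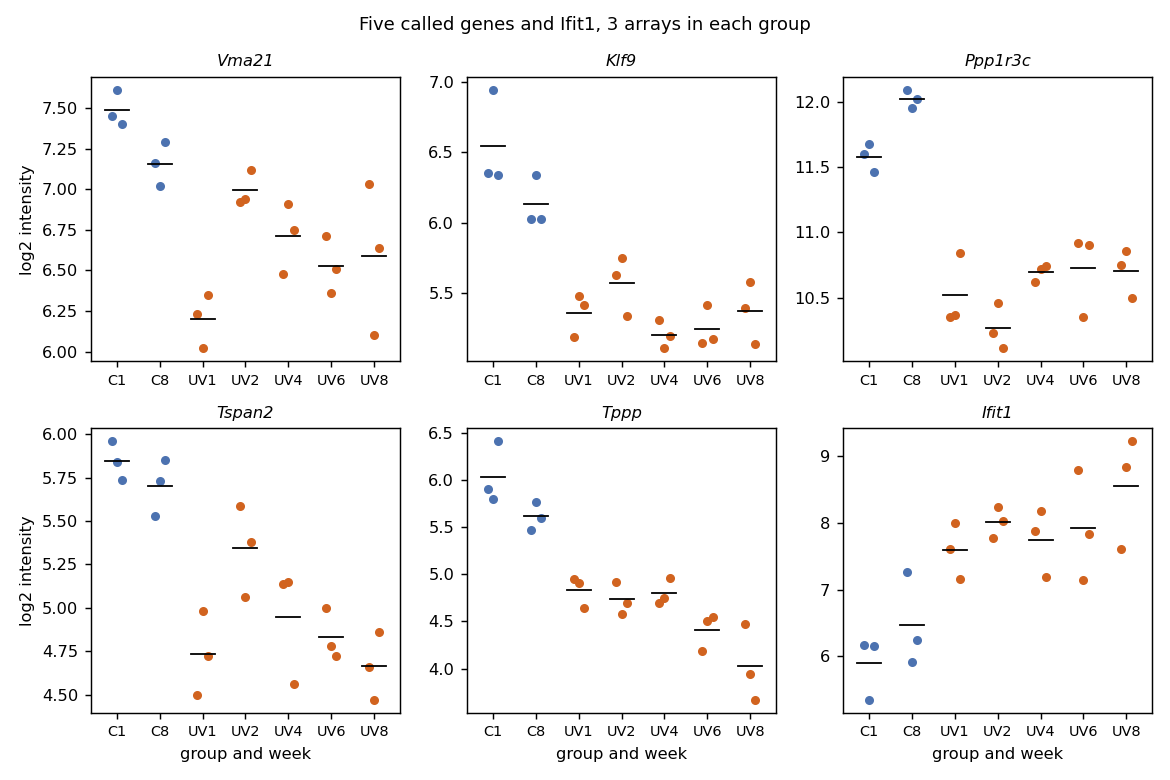
Log2 intensity (y axes, each with its own range) of the 5 called genes and of Ifit1 in every group (x axes; C1 and C8 are the controls of weeks 1 and 8, UV1 to UV8 the irradiated groups). Points are arrays, 3 a group, and lines are means. The UV points of Klf9, Ppp1r3c and Tppp lie below all control points, and those of Vma21 and Tspan2 are closer to the controls at UV week 2.

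The start sites of all 5 called genes are in RefSeq (GRCm38.p6), and the window from 250 bases before to 50 bases after each annotated start was searched on both strands. The E-box CACGTG, its own reverse complement and the site of clock, Myc and Mitf family factors, was in a window of Ppp1r3c and in both windows of Vma21. This motif is in 7.15% of the 32851 windows of all genes, and 8.09% of the 27025 genes have it in a window. The AP-1 motif TGACTCA (5.2% of all windows) was in none of the 5, the GC box GGGCGG (35.7%) was in Tppp, and AGAACA, part of the element the glucocorticoid receptor binds (19%), was in 1 window of Tspan2. These matches are letters in a window and not shown to be bound. The windows that hold the E-box nearest to the start are printed with the E-box in capitals, Ppp1r3c at chr19:36736555-36736854 on the minus strand and Vma21 at chrX:71816508-71816807 on the plus strand, both 5′ to 3′ in the direction of the gene.
Ppp1r3c: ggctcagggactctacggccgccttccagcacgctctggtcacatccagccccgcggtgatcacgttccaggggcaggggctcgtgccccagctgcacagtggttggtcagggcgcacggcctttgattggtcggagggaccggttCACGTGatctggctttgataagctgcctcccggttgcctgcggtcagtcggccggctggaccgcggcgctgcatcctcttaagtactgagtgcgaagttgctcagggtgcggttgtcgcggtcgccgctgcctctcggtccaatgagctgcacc
Vma21: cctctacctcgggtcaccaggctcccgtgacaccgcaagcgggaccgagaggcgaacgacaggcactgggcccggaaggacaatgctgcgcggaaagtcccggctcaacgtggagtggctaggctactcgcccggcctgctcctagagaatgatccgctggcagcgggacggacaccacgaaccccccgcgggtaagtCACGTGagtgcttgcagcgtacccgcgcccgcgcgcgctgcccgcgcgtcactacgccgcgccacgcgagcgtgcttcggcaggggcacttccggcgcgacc

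No higher probe set passed the test, and the smallest limma adjusted p among them was 0.0725. Among the genes with that value were Retreg3, a receptor for the turnover of the endoplasmic reticulum, Gsto1, a glutathione transferase, and Vegfd, a growth factor of lymph vessels. Retreg3 was read at 4.13, 4.84 and 4.92 in the controls and at 5.98, 5.77 and 6.47 after UV, a difference of 1.45 ± 0.26, and against control week 8 it was higher by 1.64 (limma adjusted p = 0.01). Its 2 other probe sets were also higher, by 0.67 and 0.36. Gsto1 was read at 10.99, 10.97 and 10.93 against 11.81, 11.75 and 12.09. All UV arrays were above all controls in both genes. The other probe set of Gsto1 differed by 0.11.

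Vegfd was read at 8.98, 8.77 and 8.99 in the controls and at 9.84, 9.99 and 9.65 after UV. The difference was 0.91 ± 0.16, and the 2 other probe sets of the gene gave 0.80 and 0.54. Ywhab, a 14-3-3 protein that holds phosphorylated partners in the cytosol, was higher by 0.71, 0.68, 0.63 and 0.55 at 4 of its 6 probe sets, while the others gave -0.47 and 0.24.

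Among the 10 largest lower differences outside the calls the UV arrays lay below the control arrays by the way they were chosen, and none passed the adjusted test. They were those of Zfp266, Selenot, Crk, Rab14, Krt77, Rock1, Eif5, Marcks, Marchf7 and Ergic2, from -2.48 to -1.89. Krt77, a keratin of the suprabasal epidermis and of sweat ducts, was at 12.09, 12.94 and 12.66 in the controls and at 11.25, 10.95 and 9.24 after UV, and was the only 1 of the 10 to be lowest on UV array 116. Its difference was -0.99 in the class of high beta-actin ratio and -3.55 in the other. In the other 9 UV array 116 was the highest of the UV arrays, and in 7 of the 10 control array 12 was the lowest of the controls. Rock1, a kinase that contracts actomyosin, was at 7.26, 7.63 and 6.41 against 4.40, 5.08 and 5.66, with a limma adjusted p of 0.1. Its 4 other probe sets differed by -0.65, -0.26, -0.04 and 0.02, the last being the brightest. The brightest probe sets of Selenot, Crk, Rab14, Eif5, Marchf7 and Ergic2 likewise differed by -0.12, -0.54, 0.00, -0.27, -0.26 and -0.01 only. Those of Zfp266 and Marcks went the other way, by 0.21 and 0.17, with all UV arrays above all controls.

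With the beta-actin ratio as a covariate 4 of these 10 passed the adjusted p of limma with smaller differences. They were Rock1 at -1.81 (adjusted p = 0.0496), Eif5 at -1.57 (0.0149), Marchf7 at -1.47 (0.00902) and Ergic2 at -1.43 (0.0425). With the same covariate the brightest probe sets of these 4 genes gave -0.02, -0.20, -0.16 and -0.11 in that order, and none passed. Within both classes of the ratio the 10 largest lower differences were all below 0, which the choice of separate groups fixed in advance. Those of Rock1 were -2.52 and -1.36.

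The 10 largest higher differences with separate groups were those of Ifit1, Rsad2, Retreg3, Amacr, Ms4a4c, Acod1, Tmod3, Trim12c, Slfn8 and Phf11d, from 1.69 to 0.95, and Ifit1 and Rsad2 of these are in the interferon-stimulated list described below. Tmod3, which caps actin filaments, was read at a dim probe set, and its brightest probe set differed by -1.12 and 3 more by -0.30, -0.39 and 0.26. The other probe set of Trim12c differed by 0.02. UV array 116 was the lowest UV array in 7 of them. Acod1, which makes itaconate in activated macrophages, was at 6.76, 6.54 and 6.77 against 8.11, 8.08 and 7.20, and its difference was 1.34 within the class of high beta-actin ratio and 0.54 within the other. Amacr, an enzyme of branched fatty acid oxidation, was at 7.38, 7.12 and 6.68 against 8.71, 8.28 and 8.29, but against control week 8 it was higher by 0.16 only.

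Gene lists were then read at the probe set of highest mean of each gene. Over all 18193 genes so read, 9.59% were lower and 9.94% higher at the unadjusted p, 8.96% had all UV arrays below and 10.7% all UV arrays above the controls, and the median difference was 0.05. Bright probe sets had a larger lower share: of the 11259 with a mean log2 from 7.14 up, 2204 were lower and 953 higher. Many lists lie in that range, with median control levels such as 9.25 for immediate early and 10.13 for glucocorticoid-responsive genes. Counts of lower members in such lists are to be read beside that share. No member of the lists described next passed the adjusted test at that probe set. The counts are therefore a description of where the members lie, and the unadjusted p is meant wherever a count is given.

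Of the interferon-stimulated genes, which cells turn on through STAT factors when they sense interferon or stray nucleic acid, 9 of 30 were higher and 1 was lower, and 14 had all UV arrays above the controls. The median difference was 0.43, and against control week 8 it was 0.15. Ifit1, which binds foreign RNA, had the largest difference of those with separate groups, with 6.17, 5.35 and 6.16 in the controls and 7.61, 7.99 and 7.16 after UV, or 1.69 ± 0.44 (limma adjusted p = 0.137). Rsad2, the antiviral enzyme viperin, was at 7.28, 6.54 and 7.75 against 8.87, 9.09 and 8.00. Both genes separate the groups, and in both UV array 116 was the lowest of the UV arrays. Within the classes of high and low beta-actin ratio the differences were 1.63 and 1.4 for Ifit1 and 1.70 and 0.85 for Rsad2.

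Usp18, which removes the tag ISG15 from proteins and damps the interferon receptor, was at 5.56, 5.60 and 6.01 against 6.59, 6.47 and 6.51. Ifi35 was at 10.34, 10.20 and 10.21 against 10.95, 11.31 and 10.61, and Cmpk2, a mitochondrial nucleotide kinase, was higher by 0.90. The sensors and effectors Oas1a, Oas2, Oas3, Oasl1, Oasl2, Mx1 and Dhx58 were each higher by 0.22 to 0.52 with separate groups. The immunoproteasome subunit Psmb8 was the member that was lower, by 0.66. Ifi27l2a was at 4.03 on control array 13 and between 10.92 and 12.06 on the other 5 arrays.

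The mean of the list, relative to control week 1, was 0.47, 0.54 and 0.32 on the UV arrays and 0.01, -0.30 and 0.29 on the control arrays. The groups did not overlap, but control array 16 came close to UV array 116. The median was 0.53 in the class of high beta-actin ratio and 0.29 in the other. Against control week 8 Ifit1 was higher by 1.11 and Rsad2 by 0.70, with limma adjusted p of 0.186 and 0.388. Over all weeks the 15 UV arrays overlapped the 6 control arrays in both genes. Ifit1 ran from 7.15 to 9.22 on the UV arrays and from 5.35 to 7.26 on the controls. For Rsad2 these ranges were 7.78 to 10.51 and 6.54 to 8.44.

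The promoter windows of 23 of the 30 interferon-stimulated genes were matched by symbol. The core of the interferon response element, GAAANNGAA on either strand, was in 12 of these, as against 9.76% of all 27025 genes with a window. Ifit1 holds it 3 times on the reverse strand, at -109 to -101, -103 to -95 and -84 to -76 from the start, where the first pair overlap. Its window is printed because it has the largest difference of the list with separate groups, chr19:34640639-34640938 on the plus strand, with the matches in capitals. This motif was added after the values were seen.
Ifit1: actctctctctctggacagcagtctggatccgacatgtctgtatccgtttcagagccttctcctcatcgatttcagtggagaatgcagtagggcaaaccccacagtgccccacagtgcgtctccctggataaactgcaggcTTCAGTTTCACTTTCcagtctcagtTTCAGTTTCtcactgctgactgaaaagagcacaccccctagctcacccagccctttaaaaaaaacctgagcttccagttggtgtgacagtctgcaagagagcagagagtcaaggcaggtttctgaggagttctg

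Chemokines and T cell genes were mixed. Cxcl10, the interferon-induced chemokine that attracts T cells through Cxcr3, was at 5.05, 4.75 and 6.10 against 6.61, 6.54 and 5.88, so that the groups overlap. Gzma, a protease of killer cells, was higher by 0.77 with separate groups. Cd3g of the T cell receptor was at 6.75, 6.82 and 7.0 against 6.54, 6.30 and 5.60, with separate groups. The chains Cd3e and Cd3d differed by 0.05 and -0.11 with groups that overlap, and Cd4 was higher by 0.38. Of 13 genes of this list 4 were higher and 1 was lower.

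Genes of Langerhans cells, the dendritic cells of the epidermis, and of MHC class II were lower in 3 of 11 and higher in none, and 4 had all UV arrays below the controls. Cd207, langerin, their defining lectin, was at 8.73, 8.90 and 9.02 in the controls and at 8.30, 7.87 and 7.81 after UV, or -0.89 ± 0.26 (limma adjusted p = 0.154). The difference was -0.64 in the class of high beta-actin ratio and -1.15 in the other. Epcam, which Langerhans cells share with hair follicle cells, was at 11.03, 11.36 and 11.14 against 10.43, 10.28 and 10.85. The class II chain H2-Ab1 was lower by 0.71 and H2-Aa by 0.24, both with separate groups.

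H2-Eb1, another class II chain, did not follow the groups. It was at 9.66 on control array 12 and at 9.40 and 8.97 on UV arrays 112 and 114. It was at 6.50 and 6.64 on control arrays 13 and 16 and at 6.46 on UV array 116. Among the arrays of week 1 this is the split of the beta-actin ratio. In control week 8 the beta-actin ratios were below 4, at 3.46, 3.11 and 3.43, and the H2-Eb1 mean was above that of UV week 1. The log2 ratios of the 3′ to the 5′ Gapdh control probe set were 5.98, 4.85 and 6.21 there. In week 1 these Gapdh ratios were 6.95, 6.49 and 5.84 on arrays 12, 112 and 114. On arrays 13, 16 and 116 they were 3.66, 2.79 and 2.56. Whether RNA quality moves H2-Eb1 was not tested. The mean of the list was -0.18, -0.37 and -0.29 on the UV arrays and between -0.09 and 0.05 on the controls, and its median was -0.44 within the class of high beta-actin ratio and -0.17 within the other. Of mast cell genes 2 of 11 were lower: Kit, the receptor for stem cell factor, was at 8.16, 7.75 and 7.83 against 7.33, 7.44 and 7.37, and Cpa3, a granule protease, was lower by 0.73. The step from UV week 1 to UV week 2 was 0.04 for Cd207, 0.49 for Kit and 0.63 for Cpa3, and none passed the adjusted test.

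**Figure D3:**
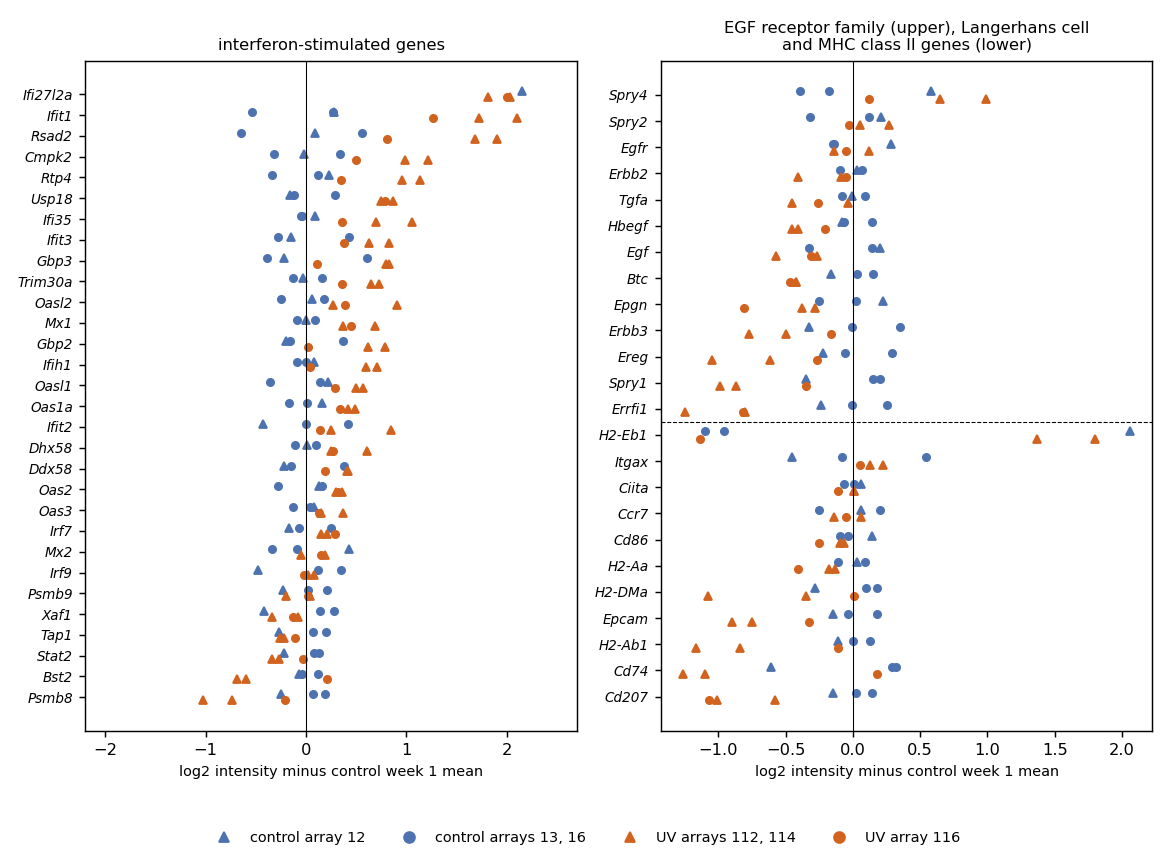
Each row is 1 gene of the interferon-stimulated list (left) and of the EGF receptor and Langerhans cell lists (right), with log2 intensity minus the control week 1 mean on the x axis. Blue points are control arrays, orange points UV arrays, and triangles mark the 3 arrays whose beta-actin ratio is above 4. In 14 of 30 interferon-stimulated genes all orange points lie right of the blue ones, in 5 of 13 EGF receptor genes and 4 of 11 Langerhans cell genes all lie left, and control array 13 of Ifi27l2a is outside the axis.

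The EGF receptor family and its ligands, through which UV is known to signal in keratinocytes, had 3 of 13 lower and 1 higher, and all UV arrays were below the controls in 5. Errfi1, an inhibitor of the receptor that is itself induced by EGF and by glucocorticoids, was at 10.71, 10.94 and 11.20 against 9.70, 10.15 and 10.13. The difference was -0.96 ± 0.20 (limma adjusted p = 0.104), and against control week 8 it was -1.44 (limma adjusted p = 0.00484). Within the classes of the beta-actin ratio it was -0.79 and -0.94.

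The ligands Epgn, Ereg, Btc and Hbegf were lower by 0.48, 0.65, 0.44 and 0.35, each with separate groups, and Tgfa and Egf were lower by 0.25 and 0.39 with groups that overlap. Btc was at 7.40, 7.59 and 7.71 in the controls and at 7.14, 7.14 and 7.09 after UV. The receptor Egfr itself was at 10.65, 10.23 and 10.22 against 10.49, 10.23 and 10.32, a difference of -0.02 ± 0.14. Spry1, a feedback inhibitor of the pathway, was lower by 0.74, and Spry4 was higher by 0.58. The mean of the list was -0.36, -0.34 and -0.28 on the UV arrays and between -0.01 and 0.01 on the control arrays, so that the groups lay apart (SD 0.04 and 0.01, n = 3).

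Of 24 immediate early and AP-1 genes 7 were lower and 1 higher, and 6 had all UV arrays below the controls. The AP-1 subunit Jun was at 8.86, 9.22 and 8.98 against 8.27, 8.34 and 8.60. Myc was at 8.19, 8.15 and 8.27 against 7.22, 7.54 and 7.75, and Ccn2, a matrix signalling protein that YAP and TGF-beta induce, was at 10.30, 10.88 and 10.93 against 10.12, 9.92 and 9.99. All 3 separate the groups, with limma adjusted p of 0.166, 0.172 and 0.176. Fos was at 12.48, 12.88 and 12.43 against 11.73, 12.61 and 11.41, and its difference of -0.68 turned to 0.34 against control week 8. Egr2 was the member that was higher, by 0.38. The median of the list was -0.18 in the class of high beta-actin ratio and -0.43 in the other.

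Among 18 glucocorticoid-responsive genes 7 were lower and none higher. Beside Errfi1 these were the phosphatase Dusp1, lower by 0.60, Tsc22d3, which carries much of the anti-inflammatory action of glucocorticoids and was lower by 0.59, Ddit4 by 0.57, Mt2 by 0.53, Angptl4 by 0.58 and Sgk1 by 0.39. All UV arrays were below the controls in 2 of the 18, Klf9 and Errfi1, and above them in 2, Zbtb16 and Hif3a. The list shares Dusp1, Errfi1 and Klf9 with others given here, and its mean on UV array 116 was -0.13, within the controls, which ran from -0.14 to 0.19.

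**Figure D4:**
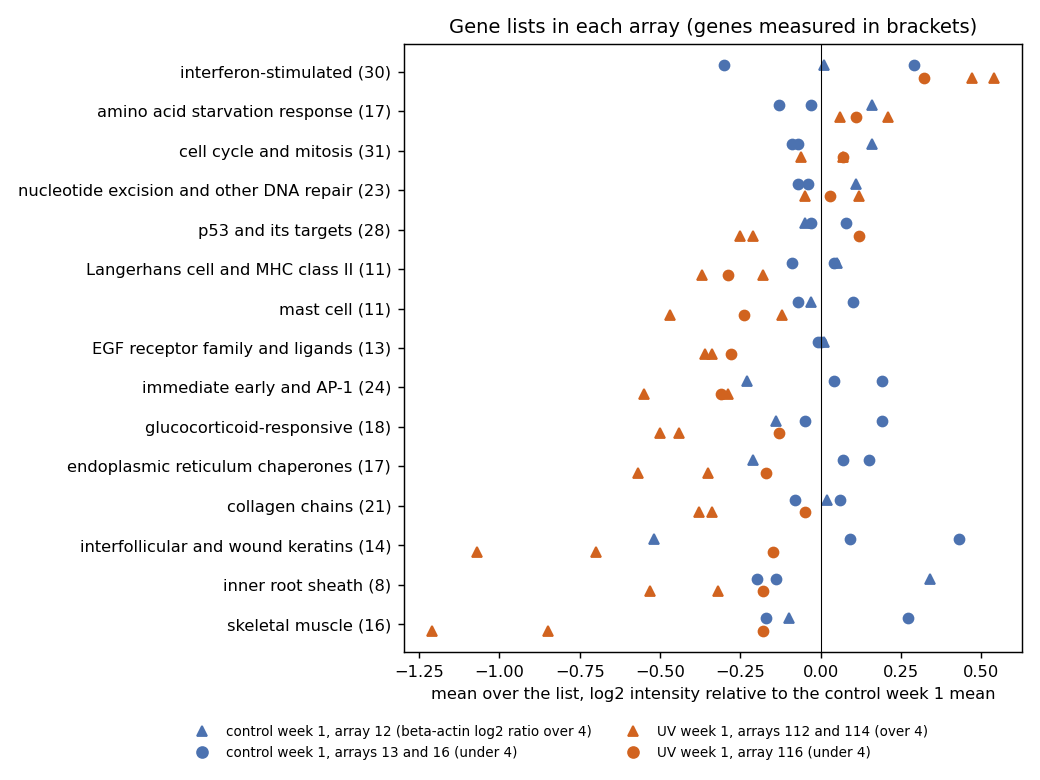
Mean of each of 15 gene lists on each array (x axis, log2 intensity relative to the mean of control week 1), with controls in blue, UV arrays in orange and triangles for the 3 arrays whose beta-actin ratio is above 4. In the EGF receptor, Langerhans cell, mast cell and immediate early lists all 3 UV arrays lie to the left of the controls, and in the interferon list to the right. In the keratin list UV array 116 lies among the controls, and in the muscle list it lies just left of the lowest control.

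Of p53 and its targets, 28 genes, 3 were lower and 2 higher, near the share of all genes. Bbc3, the death factor Puma, was at 6.40, 6.31 and 6.38 against 6.95, 7.15 and 6.66, with separate groups and a limma adjusted p of 0.154. Cdkn1a, the cycle inhibitor p21, was at 10.14, 10.44 and 10.17 against 9.75, 9.75 and 10.79, so that UV array 116 was above all controls and the other UV arrays were below them. Gadd45a was lower by 0.54 with separate groups, and Mdm2, which marks p53 for degradation, was lower by 0.26 with groups that overlap.

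Of 23 DNA repair genes 4 were higher and 2 lower. Polh, the polymerase that copies past pyrimidine dimers, was at 8.71, 7.88 and 8.24 against 9.14, 9.34 and 8.50, Brca2 was higher by 0.50 and Apex1 by 0.48, and in each the highest control, array 12, lay above UV array 116. Xpc, which finds the damage in nucleotide excision repair, differed by -0.07 ± 0.13. Of 31 cell cycle genes 6 were higher and 2 lower: the helicase subunits Mcm4 and Mcm5 were higher by 0.71 and 0.63 with separate groups and Rrm2, which makes deoxynucleotides, by 0.71, while the proliferation marker Mki67 differed by -0.01.

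Of 28 antioxidant genes 6 were lower and 3 higher, the latter being Gsto1, Nqo1 and Cat. Catalase was at 11.89, 11.83 and 11.81 against 12.25, 12.22 and 12.15, and Nqo1 was higher by 0.41, both with separate groups, but against control week 8 Nqo1 differed by -0.03. Gclm of glutathione synthesis was lower by 0.38. Genes of the amino acid starvation response were higher in 5 of 17 and lower in none, with Atf4, its transcription factor, at 11, 10.23 and 10.41 against 11.31, 11.54 and 11, and Phgdh of serine synthesis higher by 0.56. Chaperones of the endoplasmic reticulum were lower in 6 of 17 and higher in 1, with Hspa5 at 12.07, 12.73 and 12.60 against 10.84, 11.60 and 12.04, and Pdia4 lower by 0.55. Control array 12 was the highest control for Atf4 and the lowest for Hspa5, and it had the highest beta-actin ratio of the controls. The median of the chaperone list went from -0.40 to -0.18 with that ratio as a covariate, and was -0.20 and -0.23 within the classes of high and low ratio. The median of the amino acid starvation list was 0.07, and -0.10 and 0.12 within those classes.

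In the circadian clock list 4 of 18 genes were lower and none higher. Nfil3, a repressor of the clock output, was at 7.16, 7.38 and 6.89 against 6.02, 5.68 and 6.73, a difference of -1 ± 0.22 (limma adjusted p = 0.113). Clock was lower by 0.56. The hour at which skin was taken is not given in the sources used here.

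Structural genes of the epidermis differed between arrays of a group. Krt5 of the basal layer was at 11.90, 12.85 and 12.54 against 10.55, 10.66 and 12.45, and of 14 interfollicular and wound keratins 2 were lower (Krt77 and Krt15). Among 21 collagen chains 3 were lower and 5 had all UV arrays below the controls. The median of this list was -0.37 within the class of high beta-actin ratio and -0.01 within the other, and its mean on UV array 116, -0.05, lay within the controls. Col4a1 of the basement membrane was at 11.21, 11.54 and 11.11 against 10.32, 10.39 and 10.80 (limma adjusted p = 0.132), but against control week 8 it differed by -0.02, and Col1a1 differed by -0.92 ± 0.47. The collagenase gene Mmp13 was at 5.84, 6.39 and 7.26 against 6.20, 5.94 and 6.21, Mmp3 was higher by 0.28, and Timp3, an inhibitor of such proteases, was lower by 1.31 with groups that overlap.

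Of 8 inner root sheath genes of the hair follicle 4 had all UV arrays below the controls, among them Krt72 at 9.43, 9.12 and 8.98 against 8.31, 8.24 and 8.52, but against control week 8 its difference was 0.92. The median of the list was -0.56 within the class of high beta-actin ratio and 0 within the other, and its mean on UV array 116, -0.18, lay within the controls. Lhx2, a factor of the hair bulge, was lower by 0.99 with separate groups, and against control week 8 it differed by -0.05. Of 16 skeletal muscle genes 8 were lower and none higher. Myl1, a myosin light chain, was at 13.46, 13.69 and 13.39 against 11.72, 12.09 and 12.99 (limma adjusted p = 0.0956). The median of the muscle list was -1.02 in the class of high beta-actin ratio and -0.20 in the other. The fit without the arrays of high ratio gave -0.19, from the same arrays of week 1. The mean of UV array 116, -0.18, lay beside that of control array 16, -0.17.

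From UV week 1 to UV week 2, as the dose went up by 1 MED, 2 probe sets differed by at least 2-fold at the adjusted p, both higher, which is 0.00444% of those tested. One is Tpsab1, a tryptase of mast cells, and the other has no single gene symbol. At the unadjusted p 4874 probe sets were lower and 4538 higher in this step. Leaving out UV array 116 raised the count from 2 to 484, and leaving out UV array 114 of week 1 or array 225 of week 2 brought it to 0. Leaving out UV array 112 gave 1, and leaving out array 222 of week 2 gave 4. The interferon-stimulated list had a further median step of 0.42, that of the Langerhans cell list was 0.51, and that of the EGF receptor list was 0.07.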

How the data were processed

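RNA of dorsal skin was hybridized to Affymetrix Mouse Genome 430 2.0 arrays. The authors deposited linear intensity values for each probe set; their methods name Expression Console (version 1.4) with the MAS5 preprocessor, and the submitters' processing notes name RMA. Values were taken to log2 after a floor of 1. Group means of all 21 arrays were fitted with limma 3.58.1 (lmFit and eBayes, R 4.3.3) over the 45037 probe sets that are not controls, with Benjamini-Hochberg adjustment. A call needs a 2-fold difference and an adjusted p of at most 0.05. Each gene of a list is represented by the probe set with the highest mean over the arrays. Of the probe sets, 34945 have 1 gene symbol. Intensities carry no read depth, and 3 arrays a group limit the precision; the smallest exact permutation p of 3 against 3 is 0.1. Plots were drawn with Python 3.11.15, pandas 2.3.3 and matplotlib 3.10.9.

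The comparison and the gene lists were chosen with earlier results of these data known. Genes named are those called, the 10 largest per direction with groups that do not overlap, and for each list the first members and those of smallest p. Vegfd, Ywhab, Btc, Ereg, Hbegf, Tgfa, Egf, Usp18, Mx1, Dhx58, Psmb8, Ifi27l2a, the Oas genes, Cdkn1a, Sgk1, Angptl4, Zbtb16, Hif3a, Mmp13, H2-Aa and H2-Eb1 were chosen after their values were seen. Alternatives covered the filter, scaling, offset, baseline, arrays in the fit, covariates and single arrays.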

Additional observations from a re-analysis of the deposited data

Results flagged for a closer look

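Tpsab1, a mast cell tryptase, differed between 2 time points of the UV groups. From UV week 1 to UV week 2 it rose by 1.8 on the log2 scale (limma adjusted p = 0.0482), whereas in UV week 1 itself it was at 4.63, 4.81 and 5.49 against 4.93, 5.17 and 5.18 in control week 1, so that those groups overlap. It was 1 of 2 probe sets called in this step. No probe set was called in the step without UV array 114 of week 1, without array 225 of week 2 or after quantile normalization.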

How the results depend on the processing

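The count of 5 lower and 0 higher probe sets (2-fold, limma adjusted p) was the same with a filter at the 20th percentile and without probe sets that differ between the controls. It was 3 and 1 with quantile normalization, 2 and 0 with 16 added to the intensity, 0 and 0 with only the 6 arrays or with 1 probe set per gene, 55 and 5 against the mean of both controls, 47 and 20 against control week 8, 37 and 1 with the beta-actin ratio as a covariate, 87 and 7 with the Gapdh ratio and 1360 and 82 with array weights. At 2-fold with no test it was 658 and 27. By the adjusted p alone the counts in these settings were 3 and 2 with quantile normalization, 11 lower with the offset, 186 and 70, 142 and 72, 67 and 11, 177 and 43, and 4951 and 4909. With single arrays left out the count ran from 0 to 270 lower and 0 to 35 higher, and by the adjusted p alone from 0 to 547 and 0 to 420. Chosen after seeing the data, the class of beta-actin ratio as a block gave 8 and 1. Leaving out the 8 arrays of high ratio left UV array 116 alone in UV week 1, too few for a count. The 2 probe sets of the step to UV week 2 became 4 with the filter, 1 with only the 6 arrays, and 0 with quantile normalization, the offset or the block. With single arrays left out they became 0 to 484.

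Of the named genes, these turned direction. Against control week 8 the differences were 0.92 for Krt72, 0.04 for Xpc, -0.03 for Nqo1, 0.34 for Fos, 0.05 for Tpsab1, -0.69 for Mmp3, -0.12 for Egr2, 0.12 for Mki67, 0.03 for Egfr, 0.06 for Angptl4, -0.15 for Dhx58 and -1.93 for H2-Eb1. Against both controls they were 0.05 for Krt72, -0.21 for Mmp3, 0.05 for Mki67, 0.01 for Egfr and -0.63 for H2-Eb1. Array weights gave -0.19 for Mmp3, 0.04 for Mki67 and 0.1 for Egfr, and quantile normalization gave 0.05 for Xpc, 0.15 for Mki67, 0.14 for Egfr and 0 for Cdkn1a. The beta-actin covariate gave 0.04 for Tpsab1, 0 for Mki67 and 0.08 for Cdkn1a, and the block 0.04 for Tpsab1 and 0.04 for Cdkn1a. Without the arrays of high ratio Xpc was at 0.13, Tpsab1 at 0.32, Mki67 at 0, Egfr at 0.1, Cdkn1a at 0.49 and H2-Eb1 at -0.11. With single arrays left out Tpsab1 ran from -0.37 to 0.06, Mki67 from -0.11 to 0.07, Cdkn1a from -0.5 to 0.02, Xpc from -0.17 to 0.01, Egfr from -0.09 to 0.12 and Ifi27l2a from -0.6 to 3.42. The cause was not tested. No paired analysis was possible because the array numbers are not shared between groups.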
